A study of Mus musculus with 18 samples.

Results

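The genes described here are 38 cell cycle and DNA replication genes, taken by symbol from a table of 19320 genes with 1 line each. All 38 were found, and all 38 passed the filter on low values. Replication is prepared in G1, when CDC6 and CDT1 load the MCM helicase onto origins. It runs in S phase, when PCNA clamps the polymerases to DNA and ribonucleotide reductase, thymidylate synthase and thymidine kinase supply nucleotides. Cyclin A and B with CDK1 then drive mitosis, in which Aurora and Polo-like kinases, kinesins and centromere proteins sort the chromosomes before the anaphase-promoting complex, with its activator CDC20 and its enzyme UBE2C, destroys the cyclins. In the mouse spleen, which keeps making blood in adult life, dividing erythroid precursors of the red pulp and dividing lymphocytes of the white pulp are both known to use these genes.

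Spleens of ICR mice aged 10 weeks were profiled by poly(A) RNA sequencing, with 18 libraries in 6 groups of 3. Con mice were controls, A10 mice received alginate oligosaccharide (AOS, a sugar chain from brown algae) at 10 mg/kg, and STZ mice received streptozotocin, a toxin of the insulin-producing cells of the pancreas. STZ-A10 mice received STZ and AOS at 10 mg/kg. A10-FMT and Con-FMT mice received STZ and a microbiota transplant (FMT) of small intestinal content from donors given AOS at 10 mg/kg or from control donors, so STZ is shared by 4 of the groups, and recipients within a group shared 1 pooled donor material. The study's methods describe Con, STZ, A10-FMT and Con-FMT as the groups of the STZ experiment, and an A10 group of donors given AOS at 10 mg/kg. Whether the A10 spleens, labelled 10 weeks, came from such donors is not stated. STZ-A10 is known here from the labels alone. Levels are given as RPKM, a read number scaled to gene length and to the size of the library. No counts come with them, so the depth of each library is unknown and levels carry no interval for counting error.

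Libraries differed in the levels of cell type markers, also within groups. Summed RPKM of 14 erythroid genes ran from 1438 to 6713 and of 6 B cell genes from 531.2 to 2416, and 6 T cell genes summed to between 72.07 and 372.5. A10-FMT replicate 3 held the highest erythroid sum and the lowest B and T cell sums, with globins at 42.69% of its summed RPKM against 10.43% in STZ replicate 1. In bulk tissue, fewer cells of a type and less RNA per cell cannot be told apart. Exocrine pancreas genes summed to 10269 RPKM in A10-FMT replicate 2 and testis germ cell genes to 259.1 in Con replicate 2. Con replicate 1 stood apart by neutrophil progenitor genes (8 genes, summed RPKM of 4969 against 112.7 to 1439 elsewhere).

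Promoter sequence of members that moved together is shown first, to illustrate the motifs known from cell cycle promoters. These are the E2F site (searched as TTTCGCGC or TTTGGCGC), the cell cycle homology region or CHR (TTTGAA or TTCGAA), and the CCAAT box (CCAAT), each on both strands. RefSeq promoter windows (GRCm38.p6, 250 bases before to 50 after the start) were matched for 30 of the 38 genes, as 31 windows. The E2F letters were in 5 of the 12 replication members with a window (Cdt1, Mcm3, Mcm5, Mcm6 and Mcm7) and in 1 of 15 mitosis members (Cdk1), against 0.813% of all 32851 windows. With TTTCCCGC and TTTGCCGC added, Cdc6 joined, at 2.26% of all windows. The CHR letters were in 12 of the 15 mitosis members and 2 of the 12 replication members, against 19.2% of all windows, and CCAAT was in 14 of 15 and 8 of 12, against 37.4%. Of the 3 G1/S members with a window, 0 held the first E2F letters, 0 the CHR letters and 0 CCAAT. Below are the 160 bases before the start of 5 genes, on the strand of the gene, with all matches in capitals; the E2F letters of both strands overlap in Mcm5 and, at 1 place, in Mcm6. Mcm5 lies at chr8:75109349-75109508 (plus strand), Mcm6 at chr1:128359706-128359865 (minus), Cdk1 at chr10:69352913-69353072 (minus), Ccnb2 at chr9:70421555-70421714 (minus) and Ube2c at chr2:164769769-164769928 (plus).
Mcm5: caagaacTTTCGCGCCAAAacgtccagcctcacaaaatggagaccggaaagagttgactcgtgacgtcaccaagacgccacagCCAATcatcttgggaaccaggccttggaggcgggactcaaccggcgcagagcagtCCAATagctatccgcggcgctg
Mcm6: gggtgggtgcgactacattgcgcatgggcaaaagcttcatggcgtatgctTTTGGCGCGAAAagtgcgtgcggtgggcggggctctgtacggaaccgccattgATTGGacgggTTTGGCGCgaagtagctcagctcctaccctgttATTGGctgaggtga
Cdk1: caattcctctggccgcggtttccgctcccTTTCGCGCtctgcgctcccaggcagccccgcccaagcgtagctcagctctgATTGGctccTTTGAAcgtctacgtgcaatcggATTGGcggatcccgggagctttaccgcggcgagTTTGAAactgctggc
Ccnb2: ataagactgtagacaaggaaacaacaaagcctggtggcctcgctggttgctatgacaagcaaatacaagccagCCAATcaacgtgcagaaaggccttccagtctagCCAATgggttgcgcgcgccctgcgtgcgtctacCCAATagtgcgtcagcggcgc
Ube2c: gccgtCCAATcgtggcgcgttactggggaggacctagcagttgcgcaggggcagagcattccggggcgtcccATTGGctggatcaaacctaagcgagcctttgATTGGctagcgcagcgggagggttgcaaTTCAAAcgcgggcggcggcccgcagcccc
Mcm5 and Mcm6, 2 subunits of the helicase, carry E2F letters and CCAAT boxes. Cdk1, the mitotic kinase, carries all 3 motifs, with CHR letters starting 71 and 15 bases before the start. Ccnb2, a B-type cyclin, shows 3 CCAAT boxes at 87, 54 and 21 bases before the start. Its CHR letters, starting 167 bases before and 4 bases after the start, lie outside the bases shown. A match is a description of these letters only, and 8 genes had no window (Mcm4, Gins2, Ccne2, Foxm1, Ccna2, Aurkb, Kif20a and Tpx2).

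The 38 genes moved as a block from library to library. Over their 703 pairs the median Pearson r across the 18 libraries was 0.906, from 0.622 for Tk1 with Cenpf to 0.990, and 645 pairs reached 0.8, while all pairs of genes tested had a median of 0.163. With group means removed, the median over the same pairs was 0.913. The typical member had a standard deviation of 0.380 on the log2(RPKM + 1) scale, against 0.232 for the typical gene tested, and 39.1% of a member's variance lay between the groups, against 43.1% for genes tested. Points of these correlations share libraries and their cell makeup, and no test was made of them.

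**Figure D1:**
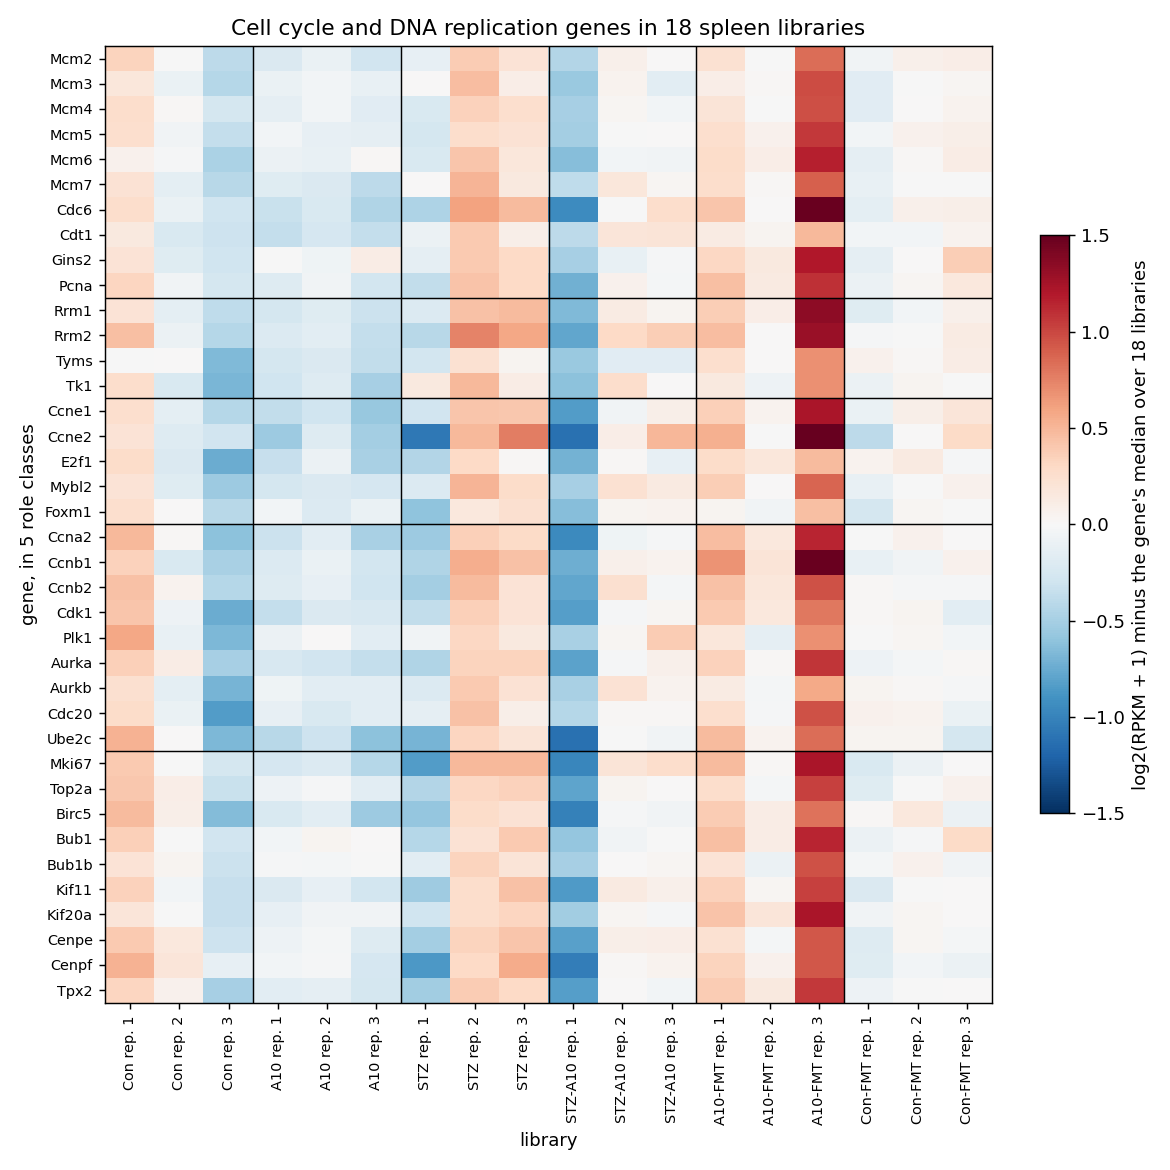
Each row is 1 of the 38 genes in 5 role classes, each column 1 library, and colour gives log2(RPKM + 1) minus the gene's median over 18 libraries. The column of A10-FMT replicate 3 is red for all genes, and that of STZ-A10 replicate 1 is blue for all genes.

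A few libraries set the extremes of nearly all members. A10-FMT replicate 3 held the highest value of all 38 genes. STZ-A10 replicate 1 held the lowest value of 30 genes and Con replicate 3 that of the other 8. STZ replicate 1 was among the lowest 3 libraries for 25 genes, whereas STZ replicate 2 was among the highest 3 for 24. Highest over lowest library ran from 1.86-fold for Cdt1, the licensing factor, to 7.32-fold for Ccne2, a G1/S cyclin.

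Pcna, the clamp that holds the polymerases on DNA (GRCm38 chr2:132249162-132253314, minus strand), was the most abundant member, at a mean of 430 RPKM. In replicate order it read 499.7, 384 and 332 RPKM in Con, 349.6, 384 and 329 in A10, 308, 537 and 493 in STZ, 243, 418 and 392 in STZ-A10, 546, 437 and 852 in A10-FMT and 377, 406 and 445 in Con-FMT. The 3 STZ libraries spanned the whole range of the Con and Con-FMT libraries, and every group overlapped with STZ. Mcm7, a helicase subunit (chr5:138164583-138172422, minus strand), read 135, 104 and 86.1 RPKM in Con, 101, 99.5 and 87.9 in A10, 116, 164 and 128 in STZ, 88.1, 129.7 and 118 in STZ-A10, 138, 116 and 216 in A10-FMT and 106, 115 and 115 in Con-FMT. The lowest STZ and A10-FMT libraries of Mcm7, at 115.8 and 116.5 RPKM, were just above the highest of Con-FMT, at 114.9. Such gaps between groups, here and below, are descriptions of single genes, and their share over all genes was not counted. Mcm3, another subunit of the helicase ring, read 75.3, 62.0 and 49.2 RPKM in Con, 62.1, 64.8 and 61.5 in A10, 67.1, 92.1 and 71.7 in STZ, 45.1, 69.5 and 59.9 in STZ-A10, 71.8, 67.8 and 133 in A10-FMT and 59.0, 66.4 and 68.2 in Con-FMT. Mcm4, also of the ring, read 67.2, 56.8 and 46.5 RPKM in Con, 50.7, 54.4 and 49.4 in A10, 47.7, 71.2 and 66.8 in STZ, 39.4, 56.9 and 54.1 in STZ-A10, 64.0, 55.7 and 109.9 in A10-FMT and 49.5, 56.1 and 58.3 in Con-FMT. For both, STZ-A10 replicate 1 was lowest and A10-FMT replicate 3 highest. Gins2, a subunit of the active helicase, was the least abundant of this class and read 18.1, 13.7 and 12.5 RPKM in Con, 15.6, 14.9 and 17 in A10, 14.2, 20.9 and 19.5 in STZ, 10.8, 14.5 and 15.4 in STZ-A10, 19.7, 17.4 and 37.4 in A10-FMT and 14.1, 15.7 and 20.6 in Con-FMT. The other MCM genes had means of 68.2 (Mcm5) to 97.4 RPKM (Mcm6), and the loading factors Cdc6 and Cdt1 of 40.2 and 46.2 RPKM.

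Rrm2, the small subunit of ribonucleotide reductase, read 145, 99.9 and 79.0 RPKM in Con, 91.9, 95.3 and 82.5 in A10, 79.2, 178 and 159.9 in STZ, 61.5, 131 and 138 in STZ-A10, 146, 107 and 261 in A10-FMT and 105, 106 and 116 in Con-FMT. Rrm1, its large subunit, read 78.5, 61.5 and 51.8 RPKM in Con, 56.2, 59.8 and 54.3 in A10, 59.0, 92.5 and 95.1 in STZ, 42.6, 74.3 and 69.8 in STZ-A10, 88.2, 72.8 and 174 in A10-FMT and 59.7, 66 and 71.9 in Con-FMT. The lowest A10-FMT library of Rrm1 was just above the highest of Con-FMT, while STZ overlapped with both. Tk1, the thymidine kinase, read 83.2, 59.2 and 42.7 RPKM in Con, 56.1, 60.2 and 48.6 in A10, 76.8, 97.6 and 74.8 in STZ, 44.7, 83.4 and 69.3 in STZ-A10, 76.8, 65.5 and 112 in A10-FMT and 65.2, 71.4 and 69.2 in Con-FMT. STZ replicate 1, low for most members, was above the Tk1 median of 69.3 RPKM. Tyms, thymidylate synthase (chr5:30058202-30073617, minus strand), read 25.1, 25.2 and 15.5 RPKM in Con, 20.8, 21.6 and 19.2 in A10, 20.6, 29.7 and 25.9 in STZ, 16.8, 22.3 and 22.3 in STZ-A10, 30.1, 25.2 and 41.0 in A10-FMT and 26.4, 25.4 and 27.2 in Con-FMT. Its A10 libraries were all below its Con-FMT libraries.

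Ccne1, the cyclin E1 that activates CDK2, read 53.2, 40 and 32.8 RPKM in Con, 34.3, 36.0 and 29.6 in A10, 36.2, 59.9 and 59.1 in STZ, 24.5, 42.9 and 47.3 in STZ-A10, 57.2, 46.1 and 105 in A10-FMT and 41.3, 47.5 and 50.4 in Con-FMT. Ccne2, its close relative, read 28.1, 21.0 and 19.6 RPKM in Con, 16.2, 21.1 and 16.6 in A10, 11, 34.4 and 41.9 in STZ, 10.6, 25.9 and 34.6 in STZ-A10, 35.4, 24.1 and 77.8 in A10-FMT and 18.2, 24.2 and 29.6 in Con-FMT. For both cyclins replicate 1 was the lowest of STZ and of STZ-A10 and replicate 3 the highest of A10-FMT, and libraries of these 3 groups overlapped. E2f1, a transcription factor of S phase genes, read 21.5, 15.1 and 10.11 RPKM in Con, 13.6, 16.4 and 12.3 in A10, 12.7, 21.9 and 17.8 in STZ, 10.4, 17.9 and 16.1 in STZ-A10, 21.6, 19.9 and 24.9 in A10-FMT and 18.3, 19.4 and 17.3 in Con-FMT. Foxm1, a transcription factor of mitotic genes, read 15.6, 13 and 9.42 RPKM in Con, 12.5, 11.1 and 12 in A10, 8.22, 14.5 and 15.5 in STZ, 7.93, 13.3 and 13.4 in STZ-A10, 13.3, 12.4 and 18.1 in A10-FMT and 10.6, 13.2 and 12.9 in Con-FMT. Both spanned less than the cyclins, at 2.46-fold and 2.28-fold from lowest to highest library against 4.29-fold for Ccne1. Mybl2, the remaining gene of the class, averaged 21.0 RPKM.

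Ube2c, which marks the mitotic cyclins for destruction (chr2:164769898-164778822, plus strand), read 507, 354 and 221 RPKM in Con, 264, 284 and 229.9 in A10, 217, 442 and 404 in STZ, 162, 350.0 and 340.4 in STZ-A10, 488, 364 and 632 in A10-FMT and 363, 363 and 294 in Con-FMT. Ccna2, cyclin A2, read 132, 94.9 and 60.9 RPKM in Con, 74.7, 84.0 and 66.9 in A10, 63.9, 121 and 115 in STZ, 47.8, 89.6 and 92.7 in STZ-A10, 129, 105 and 208 in A10-FMT and 93.4, 98.3 and 94.4 in Con-FMT. Ccnb1, cyclin B1 (chr13:100778650-100786570, minus strand), read 57.6, 38.6 and 31.9 RPKM in Con, 39.0, 42.2 and 37.3 in A10, 32.7, 66.4 and 61.8 in STZ, 26.7, 47.7 and 46.9 in STZ-A10, 72.7, 51.7 and 128 in A10-FMT and 41.8, 43.6 and 47.1 in Con-FMT. Each A10-FMT library of Ccnb1 was above each Con-FMT library, and STZ overlapped with both. Aurkb, the kinase of the chromosomal passenger complex, read 35.4, 26.7 and 17.9 RPKM in Con, 28.4, 26.6 and 26.6 in A10, 25.6, 39.4 and 34.8 in STZ, 20.9, 34.8 and 31.0 in STZ-A10, 32.5, 29.2 and 44.6 in A10-FMT and 30.6, 30 and 29.5 in Con-FMT. Plk1, the Polo-like kinase of mitotic entry, read 50.1, 30.6 and 20.5 RPKM in Con, 31.2, 33.3 and 29.6 in A10, 31.9, 41.2 and 36.9 in STZ, 23.4, 34.0 and 43.5 in STZ-A10, 37.5, 30.2 and 54.0 in A10-FMT and 33, 34.0 and 32.1 in Con-FMT. For these kinases Con replicate 3 was the lowest library, and the groups overlapped in every comparison with STZ. Cdk1, Ccnb2, Cdc20 and Aurka had means of 35.4 (Aurka) to 78.1 RPKM (Ccnb2).

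Mki67 encodes Ki67, the chromosome surface protein used to stain dividing cells (chr7:135689784-135716361, minus strand). It read 192, 145 and 121 RPKM in Con, 123, 127 and 108 in A10, 81.2, 205 and 205 in STZ, 73.6, 167 and 175 in STZ-A10, 203, 147 and 341 in A10-FMT and 124, 137 and 147 in Con-FMT. A10-FMT had the highest mean, 231 ± 99.7 RPKM (SD, n = 3), followed by STZ at 164 ± 71.4, Con at 153 ± 35.7, STZ-A10 at 139 ± 56.5, Con-FMT at 136 ± 11.3 and A10 at 119 ± 9.73. Libraries of neighbouring groups in that order overlapped. Birc5, survivin of the passenger complex, read 246, 187 and 112 RPKM in Con, 150.3, 158 and 121 in A10, 118, 215 and 205 in STZ, 86.9, 174 and 169.9 in STZ-A10, 231, 191 and 311 in A10-FMT and 179, 197 and 166 in Con-FMT. Kif20a, a kinesin of the final cut between daughter cells, read 21.8, 18.9 and 14.8 RPKM in Con, 17.4, 18.4 and 18.3 in A10, 15.3, 23.1 and 24.2 in STZ, 13, 19.5 and 18.9 in STZ-A10, 26.0, 21.7 and 45.9 in A10-FMT and 18.4, 19.4 and 19.2 in Con-FMT. Its A10-FMT libraries were all above its Con-FMT libraries. Cenpf, a kinetochore protein and the least abundant member, read 13.6, 10.5 and 8.32 RPKM in Con, 8.85, 9.01 and 7.5 in A10, 4.57, 11.5 and 13.9 in STZ, 3.95, 9.25 and 9.52 in STZ-A10, 11.8, 9.62 and 18.4 in A10-FMT and 7.93, 8.87 and 8.50 in Con-FMT. The other 6 genes of the class averaged 10.9 (Bub1) to 77.7 RPKM (Top2a).

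**Figure D2:**
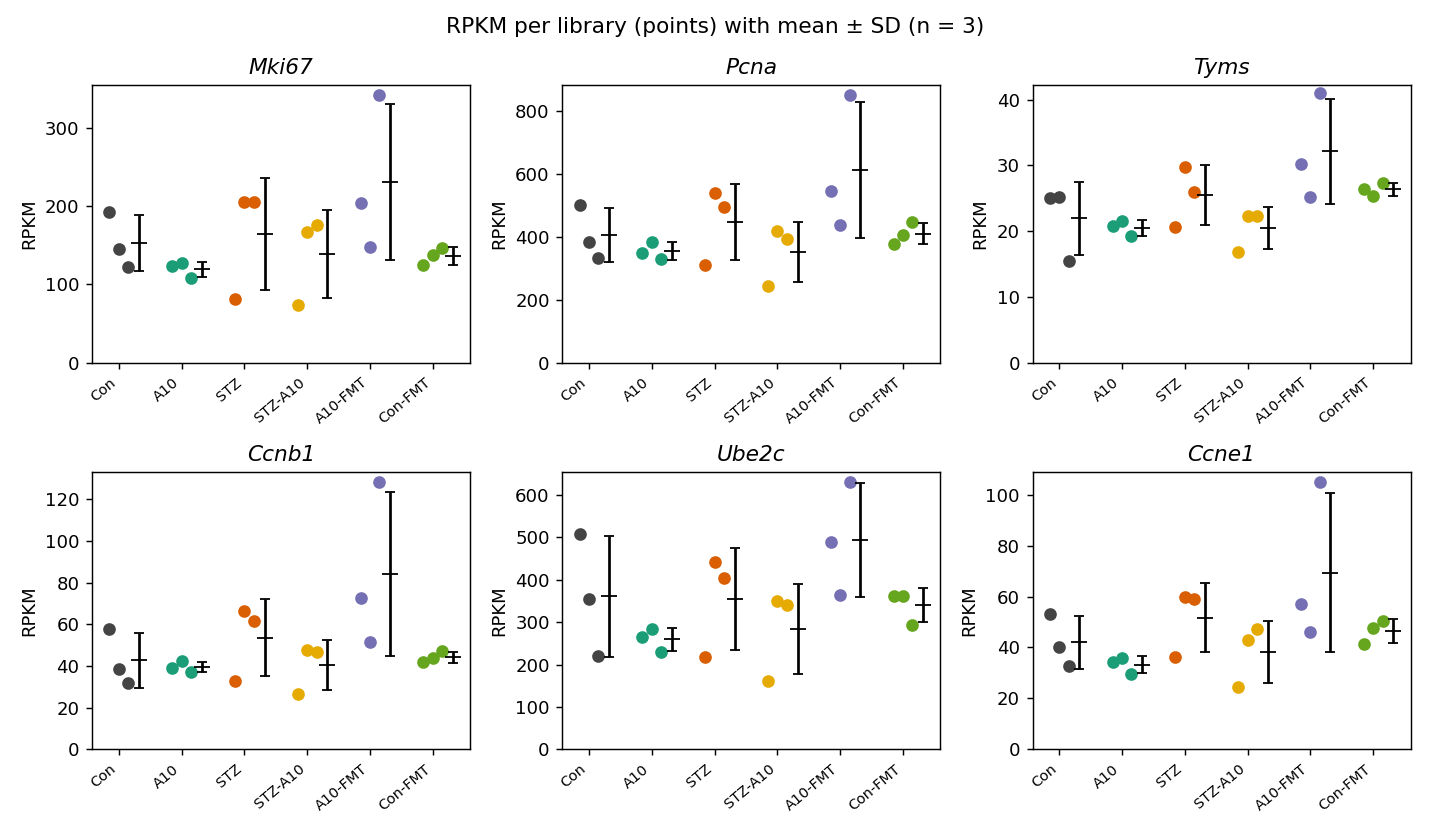
Points are RPKM in single libraries of Mki67, Pcna, Tyms, Ccnb1, Ube2c and Ccne1, and the marks beside them give mean ± SD (n = 3). For each gene the A10 and Con-FMT libraries span less than those of the other groups. Replicate 1 is the lowest of STZ and of STZ-A10, replicate 3 the lowest of Con and replicate 3 the highest of A10-FMT.

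Groups differed in their spread. The median over members of the within-group standard deviation (log2 scale) was 0.0813 in A10 and 0.0883 in Con-FMT, but 0.353 in Con, 0.394 in STZ, 0.434 in STZ-A10 and 0.503 in A10-FMT. By group mean, A10-FMT ranked highest for all 38 genes and STZ second for 32, while STZ-A10 ranked lowest for 19 and A10 for 17. These genes move together, so the shared order is not 38 separate results.

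No member differed between groups at the adjusted threshold of 0.05 (limma on log2(RPKM + 1), Benjamini-Hochberg adjustment over 12905 genes). Over the 6 groups, 0 of 38 members passed, against 0.449% of all genes tested. At an unadjusted p under 0.05, 1 member, Tyms, passed (adjusted p = 0.212), against 22.6% of genes tested. Of the 6 comparisons of pairs, 4 share STZ and 2 share Con. With library weights estimated from the data, limma called 37 members over the 6 groups (97.4%, against 97.8% of all genes tested), but that fit stopped before it converged and gave A10-FMT replicate 1 a weight of 424 against 0.0462 for replicate 3. The p-values measure only the spread between these samples.

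In STZ against Con, 0 of 38 members passed the adjusted threshold (background 0.163%), and 0 passed an unadjusted p under 0.05 (background 11.1%). The median log2 fold change was 0.17, with 35 members above 0, against a median of -0.01 for genes tested. Tk1 had the highest value, 0.46 (SE 0.247, adjusted p = 0.542), and Cenpf the lowest, -0.20 (SE 0.34). Mki67 was at 0.01, with a 95% interval of -0.79 to 0.81. All 14 replication and nucleotide genes were above 0 (medians of 0.26 and 0.34), while the 10 chromosome and spindle genes had a median of 0.03. Single libraries moved the median over all 38, to -0.01 without Con replicate 3, 0.05 without STZ replicate 2, 0.33 without Con replicate 1 and 0.37 without STZ replicate 1. In the fit without STZ replicate 1, STZ-A10 replicate 1 and A10-FMT replicate 3, all 38 were above 0 and 20 had an unadjusted p under 0.05 (background 22.3% in that fit). Of the members 0 passed limma's adjusted threshold there (background 2.78%), with a lowest adjusted p of 0.0565. Of the marker lists, 8 of 14 erythroid genes were above 0 (median of 0.14) and 6 of 6 T cell genes below 0 (median of -0.49).

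In A10-FMT against STZ, 0 of 38 members passed the adjusted threshold (background 0.00775%) and 1, Kif20a, a mitotic kinesin, had an unadjusted p under 0.05 (log2 fold change of 0.51, adjusted p = 0.284; background 17.2%). All 38 values were above 0, with a median of 0.37 against -0.15 for genes tested. With each library centred on its median gene, the median over members was 0.54. Ccne2 was highest at 0.66 (95% interval of -0.36 to 1.69) and Tk1 lowest at 0.00 (-0.52 to 0.53). The result rested on single libraries. Leaving out A10-FMT replicate 2 gave a median of 0.58, and leaving out STZ replicate 1 gave 0.12. Leaving out A10-FMT replicate 3 gave 0.06, with 25 members above 0. Without A10-FMT replicate 3, STZ replicate 1 and STZ-A10 replicate 1 together, a choice made after seeing the data, the median was -0.17 with 3 above 0. Of the erythroid genes 13 of 14 were above 0, with a median of 0.58, and all 6 B cell and all 6 T cell genes were below 0, at medians of -0.47 and -0.35. Their part in the result was not tested.

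In A10-FMT against Con-FMT, where the 2 transplants differ in the donor's treatment, 0 of 38 members passed the adjusted threshold (background 0%). At an unadjusted p under 0.05 there were 3, against a background of 23.6%. These were Ccnb1 (0.82, SE 0.321, 95% interval of 0.13 to 1.5, adjusted p = 0.204), Kif20a (0.62, SE 0.236, adjusted p = 0.204) and Rrm1 (0.65, SE 0.282, adjusted p = 0.206). All 38 were above 0, with a median of 0.48 against -0.17 for genes tested. With each library centred on its median gene, it was 0.65 and 9 members (23.7%) had an unadjusted p under 0.05, against 18.9% of genes tested. The lowest value was that of Aurkb, 0.21, and Mki67 was at 0.68 (95% interval of -0.12 to 1.48). Without A10-FMT replicate 3 the median was 0.19, and without A10-FMT replicate 2 Ccnb1, Rrm1 and Kif20a passed the adjusted threshold, 7.89% of members against 20.3% of all genes tested in that fit. All 14 erythroid genes were above 0 (median of 0.74) and all 6 T cell genes below 0 (median of -0.96).

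In Con-FMT against STZ, 0 of 38 members passed the adjusted threshold (background 0.00775%) and 0 an unadjusted p under 0.05 (background 5.24%). The median was -0.12, with 35 members below 0, from -0.29 for Rrm1 to 0.10 for E2f1. Leaving out STZ replicate 1 gave -0.32, and leaving out STZ replicate 2 gave 0.01. Without STZ replicate 3 the median was also close to 0. In A10 against Con, 0 of 38 passed (background 0.00775%) and 0 had an unadjusted p under 0.05 (background 5.25%). The median was -0.14, from -0.40 for Ube2c to 0.11 for Gins2, and it was 0.03 without Con replicate 1 and -0.32 without Con replicate 3. In the same comparison 14 of 14 erythroid genes were below 0 with a median of -0.62.

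In STZ-A10 against STZ, 0 of 38 members passed the adjusted threshold (background 0.00775%) and 0 an unadjusted p under 0.05 (background 2.93%). All 38 values were below 0, with a median of -0.30, from -0.44 for Ccne1 to -0.12 for Foxm1, and the median was -0.07 without STZ-A10 replicate 1, -0.17 without STZ replicate 2 and -0.54 without STZ replicate 1. Erythroid genes were below 0 for 13 of 14 (median of -0.36). The interaction of STZ and AOS, which asks whether AOS acts differently with and without STZ, gave 0 of 38 members at the adjusted threshold (background 0%) and 0 at an unadjusted p under 0.05 (background 2.86%), with a median of -0.15. The intervals of single members were wide. For Mki67 they ran from -1.13 to 0.47 in A10 against Con and from -1.02 to 0.58 in STZ-A10 against STZ, so falls and rises within these limits could not be told from 0.

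**Figure D3:**
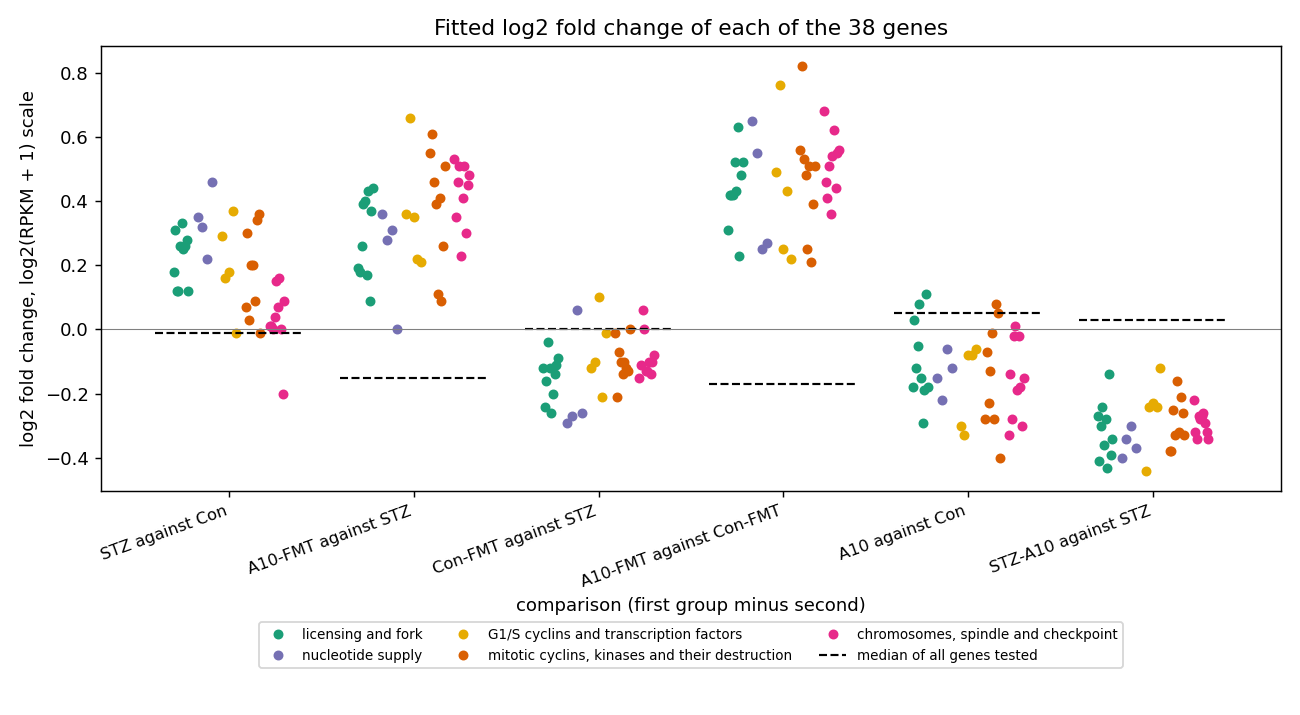
Each point is the fitted log2 fold change, on the log2(RPKM + 1) scale, of 1 of the 38 genes in 1 comparison, coloured by role, and the dashed line is the median of all genes tested. Members lie above the line in both A10-FMT comparisons and below it in STZ-A10 against STZ, while none of the 38 passed the adjusted threshold.

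Other genes of the pathway, 93 in all with 92 tested, gave 1 call at the adjusted threshold over the 6 comparisons. It came in STZ against Con, where 0.163% of all genes tested passed. Cdkn1a, the p21 inhibitor of cyclin-dependent kinases, rose in STZ against Con by 1.06 (SE 0.163, adjusted p = 0.0267), from 7.91 ± 0.75 to 17.6 ± 2.4 RPKM (SD, n = 3), and also passed limma's F test over the 6 groups after adjustment. In the other groups Cdkn1a was at 14.4 ± 2.63 RPKM in STZ-A10, 12.7 ± 3.29 in A10-FMT, 10.0 ± 0.94 in Con-FMT and 8.31 ± 0.676 in A10. The 25 further replication genes and 45 further mitosis genes had medians close to those of the members (0.22 and 0.13 in STZ against Con, 0.38 and 0.41 in A10-FMT against Con-FMT). Cep55, a protein of the final cut between daughter cells, is named after its values were seen. It had a mean of 10.3 ± 2.4 RPKM in A10, 6.09 ± 1.97 in Con and 3.4 ± 0.736 in STZ (SD, n = 3). Means of Cep55 were 4.61 ± 0.936 in STZ-A10, 4.13 ± 1.3 in A10-FMT and 5.91 ± 0.17 in Con-FMT.

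Across the 18 libraries, every member followed the erythroid genes up and the lymphocyte genes down. Klf1 is the master transcription factor of red cell precursors and ran from 69.54 to 349.5 RPKM; Alas2, the first enzyme of heme synthesis in red cells, ran from 217 to 1272. With Klf1, all 38 members had a positive correlation at an adjusted p under 0.05 (background 12%), with a median r of 0.889 from 0.774 for Plk1 to 0.962 for Ccne1. For Ccne1 the permutation p was 1e-05, the smallest that 100000 permutations can give (Spearman rho of 0.911, p = 1e-05; adjusted p of 7.94e-05 and 0.000125). With Alas2, 38 of 38 were positive (background 9.49%), from 0.618 for Mcm3 (permutation p = 0.00651, adjusted 0.015; rho of 0.614, p = 0.00758) to 0.923 for Mki67 (permutation p = 1e-05, adjusted 0.000218; rho of 0.897, p = 2e-05).

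The lymphocyte genes ran the other way. Cd79a, a signalling chain of the B cell receptor, ran from 189.9 to 971 RPKM and Cd3e, a chain of the T cell receptor complex, from 4.96 to 41.86. With Cd79a, 38 of 38 members were negative (background 12.5%), with a median r of -0.868, from -0.924 for Mcm4 (permutation p = 1e-05; rho of -0.849, p = 2e-05) to -0.681 for E2f1 (permutation p = 0.00066, adjusted 0.0022; rho of -0.746, p = 0.00059). With Cd3e, 38 of 38 were negative (background 13.5%), with a median of -0.851, from -0.934 for Rrm1 (permutation p = 1e-05; rho of -0.864, p = 1e-05) to -0.692 for Foxm1 (permutation p = 0.00131, adjusted 0.00354; rho of -0.765, p = 0.00029). Adjustment ran over the 12904 genes tested with each marker. On the RPKM scale, all genes tested leaned the other way, at a median r of -0.531 with Klf1 and 0.491 with Cd79a. The members' median r with Klf1 stood at percentile 97.2 of genes tested. With each library centred on its median gene, the medians of genes tested were -0.048 and 0.005. Genes positive with Klf1 at an adjusted permutation p under 0.05 then numbered 3145, against 1548 before, and included all 38 members.

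The relations were then recomputed within groups, as deviations from group means permuted within groups. All 38 members stayed positive with Klf1 (background 8.4%), 37 with Alas2 (background 7.42%), and 38 stayed negative with Cd79a (background 8.37%) and with Cd3e (background 8.43%), all at an adjusted p under 0.05. The exception was Mcm3 with Alas2 (r = 0.599, permutation p = 0.0252, adjusted p = 0.0603). Without the 2 libraries farthest from the marker's median, 36 members passed with Klf1 (background 7.87%), 38 with Alas2 (background 10.7%), 37 with Cd79a (background 7.04%) and 33 with Cd3e (background 7.19%). Ccne1 then had r = 0.930 with Klf1, Plk1 0.607, Mki67 0.881 with Alas2, Mcm3 0.663, Mcm4 -0.794 with Cd79a, E2f1 -0.650, Rrm1 -0.822 with Cd3e and Foxm1 -0.574 (permutation p = 0.0198, adjusted p = 0.0528). A10-FMT replicate 3 was 1 of the 2 for Klf1, Cd79a and Cd3e, but not for Alas2. Leaving out A10-FMT replicate 3 alone gave 35 members positive with Alas2, against 955 of 12904 genes tested, with a lowest member r of 0.498. RPKM values of a library share 1 total, and the part of that shared total in these relations was not tested beyond the rescalings.

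**Figure D4:**
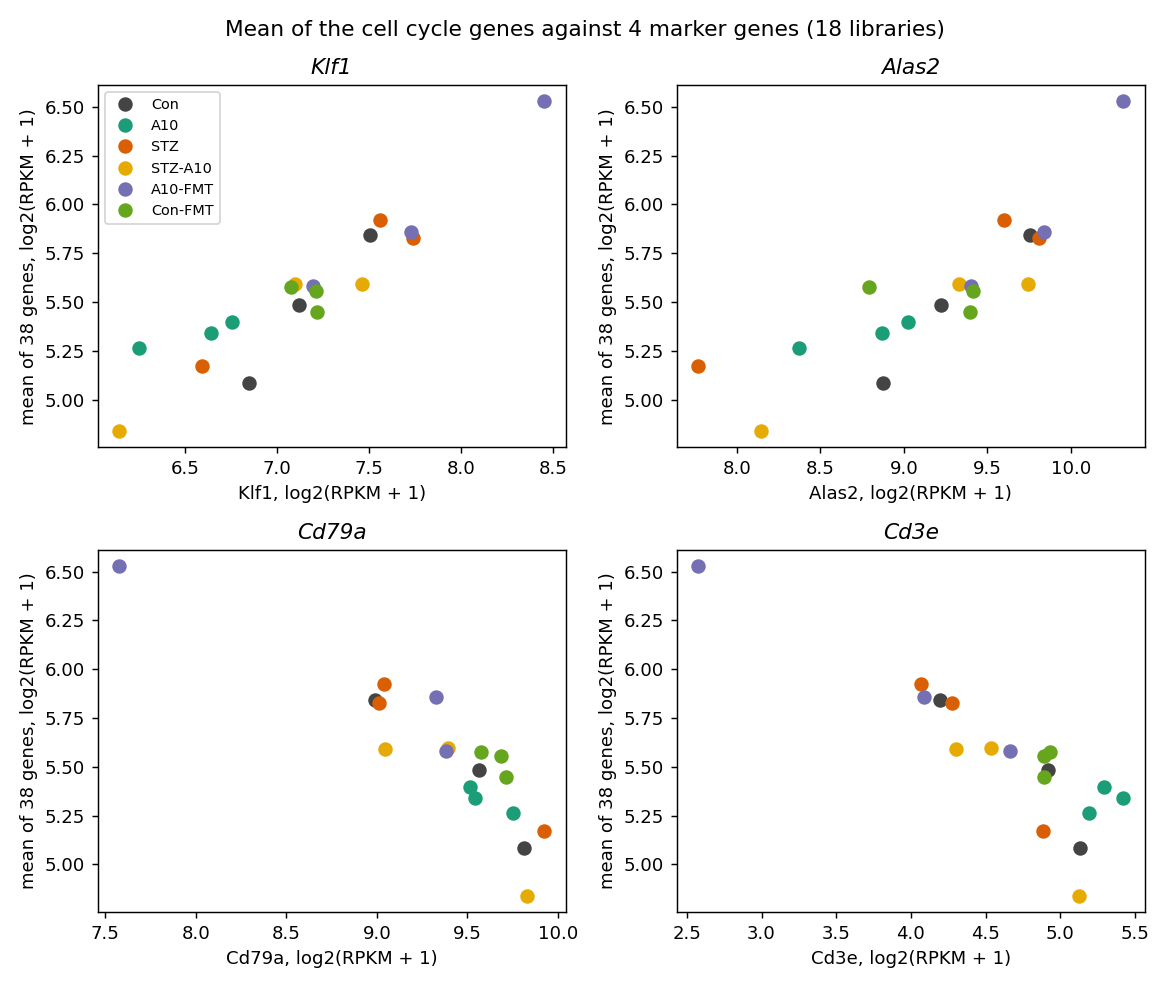
Each point is a library, with the mean log2(RPKM + 1) of the 38 genes on the vertical axis and log2(RPKM + 1) of Klf1, Alas2, Cd79a or Cd3e on the horizontal axis. The mean of the 38 genes rises with Klf1 and Alas2 and falls with Cd79a and Cd3e, with A10-FMT replicate 3 at one end.

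**Figure D5:**
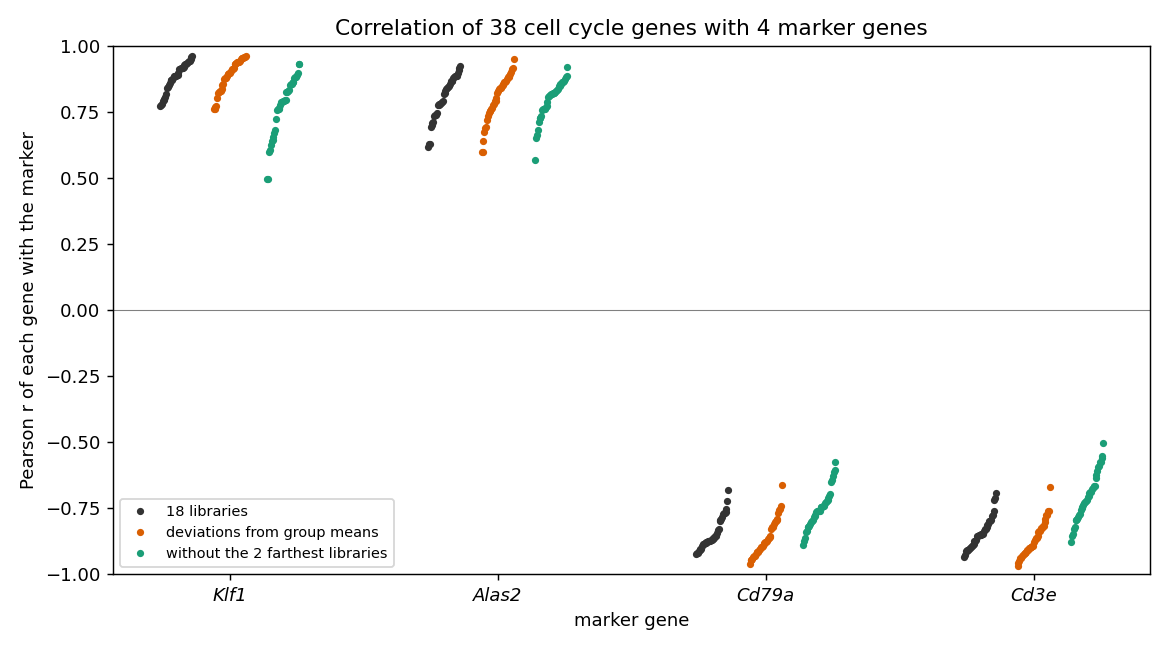
Each point is the Pearson r of 1 of the 38 genes with a marker gene, over 18 libraries, as deviations from group means, or without the 2 libraries farthest from the marker's median. All points are above 0 for Klf1 and Alas2 and below 0 for Cd79a and Cd3e.

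Members differed in how steeply they followed Klf1. The fitted slope, in log2 units of member per log2 unit of Klf1, had a median of 0.59, from 0.40 for Cdt1 to 1.09 for Ccne2, and the class medians were 0.50 for licensing and fork genes, 0.61 for nucleotide supply, 0.56 for G1/S genes, 0.66 for mitotic cyclins and kinases and 0.65 for chromosome and spindle genes. Klf1 shared 79.1% of the variance of the typical member. The mean of the 38 genes lay 0.29 below the line in Con replicate 3 and 0.27 above it in A10 replicate 3.

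With log2 Klf1 as a covariate, chosen after seeing the data, 0 members passed the adjusted threshold in any of the 6 comparisons. Of all 12904 genes tested in that fit, 245 passed in STZ against Con and 0 to 2 in each of the other comparisons. The median log2 fold change shrank to 0.02 in A10-FMT against STZ, 0.04 in A10-FMT against Con-FMT and -0.03 in STZ-A10 against STZ. In A10 against Con it turned from -0.14 to 0.29, with all 38 members above 0 and 17 at an unadjusted p under 0.05 (background 8.08% in that fit). Klf1 was itself measured in the same libraries, and a change in erythroid cells and a change in the cell cycle of all cells cannot be told apart.

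As whole lists, the members' mean had r = 0.942 (Spearman rho of 0.948) with the mean of 14 erythroid genes, -0.905 (rho of -0.950) with 6 B cell genes and -0.826 (rho of -0.792) with 6 T cell genes, over 18 libraries and as a description. Within groups r was 0.949, -0.890 and -0.877. Other lists gave r = -0.360 (rho of -0.348) for 5 germinal centre B cell genes, -0.617 for 4 plasma cell genes, 0.225 for 8 neutrophil progenitor genes, -0.004 for 6 megakaryocyte genes and -0.490 for 5 red pulp macrophage genes. The mean of the 9 globin genes, of which 6 passed the filter on low values, gave r = 0.402 (rho of 0.340) over libraries. Within groups it gave -0.003. The globin share of summed RPKM, by contrast, gave r = 0.858 (rho of 0.878) over libraries and 0.841 within groups. Con replicate 1, with the highest neutrophil progenitor sum, had a members' mean of 5.84 (log2 scale), above the median of 5.565 over libraries. The libraries ran from 4.84 to 6.53, and Con replicate 1 was among the highest 3 for 18 of the 38 members. Liver, pancreas and testis lists gave 0.148, 0.111 and -0.094.

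Pathway genes outside the members are named here after their values were seen. Of 25 replication and 45 mitosis genes, 24 and 44 had a positive r with Klf1, at medians of 0.843 and 0.886, with Pold1, a polymerase subunit (-0.112), and Cep55 (-0.629) as exceptions. Of 11 brakes, 8 had a positive r with Klf1 (median of 0.482). Cdkn2c, an inhibitor of CDK4 and CDK6, had 0.924 and Rb1, the retinoblastoma protein, 0.911, while Rbl2, a pocket protein of resting cells, had -0.839 and Btg1, an antiproliferative gene, -0.837. In the G1 engine 9 of 11 genes were positive, with a median of 0.719. E2f4 (0.934) and E2f2 (0.918) went with Klf1 and the D cyclins Ccnd2 (-0.778) and Ccnd1 (-0.574) went against it, while Ccnd3 had 0.719. These are descriptions over 18 libraries.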

How the data were processed

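Total RNA of each spleen was extracted, poly(A)-selected and sequenced on an Illumina instrument by the authors. The authors deposited RPKM values, which the paper's methods credit to SOAPaligner, while the submitters' processing notes name Bowtie 0.12.2 and mm10; the annotation is not given in the sources used here. The table held 19326 lines, of which 6 with repeated names were left out, and 0 columns were unassigned. Groups came from the labels. Genes with an RPKM of at least 1 in at least 3 libraries (12905) were fitted on log2(RPKM + 1) with limma 3.58.1 (trend) in R 4.3.3, all 18 libraries and 6 group coefficients, two-sided, with Benjamini-Hochberg adjustment over all genes. Fold changes on this scale understate low genes. Correlations used two-sided permutation tests (100000 permutations, or all 46656 within groups). The steps were tested on simulated data. Members, gene lists and motifs were chosen with earlier results of these data known; members given by library are Mki67, the 2 most abundant of each class and the extremes of each comparison and marker, with Kif20a and Tyms added after their values were seen. Alternatives are given in the closing section. The labels name no batch, and nothing shows whether the 3 libraries of a group share a litter or cage.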

Additional observations from a re-analysis of the deposited data

How the results depend on the processing

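The count of members past the threshold stayed at 0 in all comparisons, the interaction and the test over 6 groups under another pseudocount (0.1), other filters, quantile normalization, median centring, rescaling without globins, only the groups compared (run for the 6 comparisons of pairs), limma without trend and the replicate block (0 in each). Few of all genes tested (11068 to 18943 by filter) passed in these fits, those of only the groups compared aside. They numbered 3 to 47 in STZ against Con, 0 to 9 in each other comparison and the interaction, and 21 to 231 over the 6 groups. The 45 same-numbered pairs of libraries had r from -0.385 to 0.571, with a median of 0.0441 against -0.00941 for pairs with other numbers. Of 18 libraries 9 correlated best with their own number, and pairing by number was not tested. With array weights the counts were 31 in STZ against Con, 7 in A10-FMT against STZ, 25 in Con-FMT against STZ, 32 in A10-FMT against Con-FMT, 11 in A10 against Con, 21 in STZ-A10 against STZ, 3 in the interaction and 37 over the 6 groups; that fit stopped before it converged, with a weight of 424 on A10-FMT replicate 1 and 0.0462 on replicate 3, and called, in the same order, 60.7%, 51.6%, 38.8%, 66%, 37.1%, 27%, 15.3% and 97.8% of all genes tested. Leaving out single libraries gave 0 to 3 members in A10-FMT against Con-FMT, the 3 (7.89%) without A10-FMT replicate 2, where 20.3% of all genes tested passed. The median over members then ran from -0.01 to 0.37 in STZ against Con, 0.06 to 0.58 in A10-FMT against STZ, -0.32 to 0.01 in Con-FMT against STZ, 0.19 to 0.68 in A10-FMT against Con-FMT, -0.32 to 0.03 in A10 against Con and -0.54 to -0.07 in STZ-A10 against STZ. The median log2 fold change moved to -0.02 in A10-FMT against STZ with array weights and to -0.17 without STZ replicate 1, STZ-A10 replicate 1 and A10-FMT replicate 3; with Klf1 as a covariate it moved to 0.04 in A10-FMT against Con-FMT and 0.29 in A10 against Con. The last 2 settings were chosen after seeing the data, and the causes were not tested.

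Single members moved, and several changed sign. Leaving out single libraries, Mki67 ran from -0.22 to 0.45 in STZ against Con, -0.59 to 0.07 in Con-FMT against STZ and -0.66 to 0.18 in STZ-A10 against STZ, Cenpf from -0.48 to 0.23 in STZ against Con, Mki67 from 0.08 to 0.80, Ccne2 from 0.10 to 1.03 and Tk1 from -0.21 to 0.17 in A10-FMT against STZ, E2f1 from -0.10 to 0.27 in Con-FMT against STZ and Foxm1 from -0.38 to 0.11 in STZ-A10 against STZ. Mki67 in STZ against Con was -0.04 rescaled without globins. With array weights Cenpf was 0.09 in STZ against Con, Tk1 -0.30 in A10-FMT against STZ and E2f1 -0.15 in Con-FMT against STZ, and with quantile normalization Tk1 was -0.02. Without the 3 libraries, Cenpf was 0.23 in STZ against Con, Mki67 -0.24, Ccne2 -0.37 and Tk1 -0.27 in A10-FMT against STZ, and E2f1 -0.10 in Con-FMT against STZ. With Klf1 as a covariate, Mki67 was -0.13 in STZ against Con, 0.29 in A10 against Con and 0.18 in STZ-A10 against STZ, Tk1 -0.25 in A10-FMT against STZ, Aurkb -0.12 in A10-FMT against Con-FMT, Ube2c 0.13 in A10 against Con and Foxm1 0.11 in STZ-A10 against STZ. Under the alternatives run for them, correlated members numbered 35 to 38 of 38 with Klf1 and 34 to 38 with Alas2. With Cd79a they numbered 34 to 38 and with Cd3e 33 to 38. Of the 12904 genes tested, 1016 to 3145, 955 to 2503, 908 to 3078 and 928 to 3274 passed in the same direction, in that order. Sequencing depth is unknown, so values near 1 RPKM may rest on few reads.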

Other observations

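The balance between mitosis and replication genes varied between libraries, as the mean log2(RPKM + 1) of 19 mitosis members minus that of 14 replication and nucleotide members. It ran from -0.887 in STZ replicate 1 and -0.804 in STZ-A10 replicate 1 to -0.466 in Con replicate 1, with a median of -0.614. In STZ replicate 1 Mki67 and Cenpf were low (81.2 and 4.57 RPKM) and 11 of the 14 replication and nucleotide members were below their own medians over libraries, while Tk1 and Mcm7, at 76.8 and 116 RPKM, were above theirs (69.3 and 115 RPKM). By group the balance was -0.563 ± 0.121 (SD, n = 3) in Con, -0.609 ± 0.0125 in A10, -0.72 ± 0.161 in STZ, -0.684 ± 0.106 in STZ-A10, -0.596 ± 0.0541 in A10-FMT and -0.654 ± 0.0774 in Con-FMT, with overlapping libraries.

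The germinal centre B cell genes, a list of 5, had r = -0.360 with the members' mean over 18 libraries. Their summed RPKM was 16.3 ± 2.27 in STZ against 37.3 ± 16.3 in Con, 61.2 ± 1.99 in A10, 28.1 ± 7.05 in STZ-A10, 28.2 ± 21.5 in A10-FMT and 50.8 ± 13.5 in Con-FMT (SD, n = 3; A10-FMT libraries from 10.53 to 52.15), with 3 of 5 at an unadjusted p under 0.05 in STZ against Con (11.1% of genes tested) and 5 of 5 in Con-FMT against STZ (5.24%). By limma, 0 of the 5 passed the adjusted threshold in either comparison (lowest adjusted p of 0.097 and 0.798).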
